A study of Oryctolagus cuniculus with 57 samples.

Results

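The genes described here encode subunits of the mitochondrial respiratory chain and of ATP synthase in the rabbit ileum. Members were all probes of the deposited value table whose gene symbol began with NDUFA, NDUFB, NDUFC, NDUFS, NDUFV, SDH, UQCR, COX4, COX5, COX6, COX7, COX8 or ATP5, with the NDUFAF assembly factors left out. The rule took 155 probes of 41 genes, out of 33284 probes and 8280 named genes. Complex I was represented by 21 genes and 92 probes, complex III by 4 genes and 10 probes, complex IV by 6 genes and 13 probes and complex V by 7 genes and 32 probes. The SDH prefix took only SDHAF1, SDHAF2 and SDHAF3, with 8 probes, which are assembly factors of complex II and not subunits of it. Several core subunits were not among the named probes and are not analysed here: NDUFV1, NDUFS7, NDUFS8, SDHA to SDHD, UQCRC2, UQCRFS1, COX4I1, COX5A, ATP5F1A and ATP5F1B.

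RNA of whole ileum was measured on 57 one-colour Agilent arrays, each of a different hybrid rabbit (PS Hyplus 19 × PS Hyplus 39), at 35 days of age, the day of weaning, and at 49 days. In all 3 treatments the droppings of the mother were kept from the nest. Kits of the FF group received feces of unrelated does, kits of the NF group received none, and kits of the FFab group received feces of unrelated does treated with the antibiotics tetracycline and tiamulin. The feces were supplied in the nest in early life, and the supply had ended before the first sampling at 35 days. The study removed 1 NF array of day 35, which left 10 and 9 arrays for FF, 9 and 9 for NF and 10 and 9 for FFab at days 35 and 49. Treatments were given by nest and the litter of each rabbit was not given in the sources used here, so p-values measure the spread between rabbits that may share a nest. The 9 slides each carried arrays of all 6 groups, except that 1 slide lost its NF array of day 35.

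Complex I takes electrons from NADH and complex II from succinate, and ubiquinone passes them to complex III, cytochrome c and complex IV, which reduces oxygen. Complexes I, III and IV pump protons across the inner mitochondrial membrane, and complex V uses the gradient to make ATP. Most subunits are encoded in the nucleus and are made in nearly every cell, but some subunits of complex IV exist in tissue-specific forms: COX7A1 is the form of heart, skeletal muscle and brown fat, while COX7A2 and COX6A1 are found in most tissues. COX7A2 was not among the members, so COX7A1 could not be set beside it here. In the ileum the absorptive epithelium spends much of its ATP on ion and nutrient transport, and the muscle layers are also rich in mitochondria.

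Each probe was a 60-base oligonucleotide. The tested probes of 4 genes that passed a test are shown, since the results rest on what these oligonucleotides bind:
COX7A1: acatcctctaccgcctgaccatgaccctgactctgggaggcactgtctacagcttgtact
NDUFA2: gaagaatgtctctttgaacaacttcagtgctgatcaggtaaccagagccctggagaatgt
NDUFB4: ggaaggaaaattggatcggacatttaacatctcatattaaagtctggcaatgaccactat
COX6A1: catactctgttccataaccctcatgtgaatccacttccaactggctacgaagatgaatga
On the oryCun2 build of the array design, the NDUFA2 probe lies at chr3:22765078-22765137 and the NDUFB4 probe at chr14:98262862-98262921, both on the minus strand. No usable position was given for the probes of COX7A1 and COX6A1. Whether a probe lies in coding sequence or in an untranslated region could not be read from the sources used here. The probe of COX7A1 was the only probe of that gene, as was that of COX6A1, whereas NDUFB4 was read by 10 overlapping probes and NDUFA2 by 6. Probes of NDUFA2 and of NDUFB4 overlapped one another, so they are not independent measurements of it.

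All 155 probes passed the filter on dim probes, by which a probe had to exceed background clearly on 75% or more of a group's arrays, and 150 of them were well above background on every array. No spot was saturated. A gene was read by its probe of median level, and its age change is day 49 minus day 35 on the log2 scale of quantile normalized intensity, tested in 1 limma fit of 7969 named genes with Benjamini-Hochberg adjustment. The first call rule asked for an adjusted p under 0.05 and a log2 change beyond 0.5, and the second for the adjusted p alone.

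The respiratory chain genes changed little between days 35 and 49, with the exception of COX7A1. In FF, COX7A1 was the only one of the 41 genes that passed the first rule (4.3% of all genes tested passed it), and NDUFA2 and NDUFB4 fell under the second rule (7.88% of all genes). This split of 1 rise and 2 falls was 3 rises and 1 fall with the deposited table. In NF no member passed either rule (0.0376% and 0.0627% of all genes did), and 1 member had an unadjusted p under 0.05 (6.04% of all genes). In FFab no member passed either (0.0753% and 0.1% of all genes), and again 1 member had an unadjusted p under 0.05 (8.43% of all genes). In both of these groups that member was COX7A1. Averaged over the treatments, COX7A1 passed the first rule (3.44% of all genes), and 5 members passed the second, with COX6A1 among those that rose and NDUFA2 and NDUFB4 among those that fell (6.5% of all genes rose and 6.95% fell, 13.5% in all). Members with an unadjusted p under 0.05 numbered 7 in FF (21.1% of all genes) and 9 over all treatments (25.8% of all genes). For no member did the arrays of day 35 and day 49 stand apart without overlap in any treatment, where 0.715% of all genes did in FF, 0.0376% in NF and 0% in FFab.

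The median age change of the 41 genes was 0.02 in FF, 0.06 in NF and -0.002 in FFab, beside -0.01, -0.004 and -0.003 over all genes. Of the 41 genes, 26 had a value above 0 in FF, 31 in NF and 20 in FFab, and 18 were above 0 and 7 below 0 in all 3 treatments. Of all 7969 genes, 3823 were above 0 in FF, 3902 in NF and 3918 in FFab. The size of the change was small beside that of other genes in FF: its median over the members was 0.09, against 0.15 over all genes. The members also varied little between rabbits of a group, with a median pooled SD of 0.14 against 0.33 over all genes, and 36 of the 41 lay below the latter value. They were brighter as well, with a median log2 level of 14.41 against 8.44 over all genes. Whether the small changes and the small spread go with that level was not tested. Leaving out COX7A1, the 95% interval of the age change lay within 0.5 of 0 on the log2 scale for 37 of 40 genes in FF, in NF and in FFab. For these genes a change of the size asked by the first rule lay outside the interval.

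**Figure D1:**
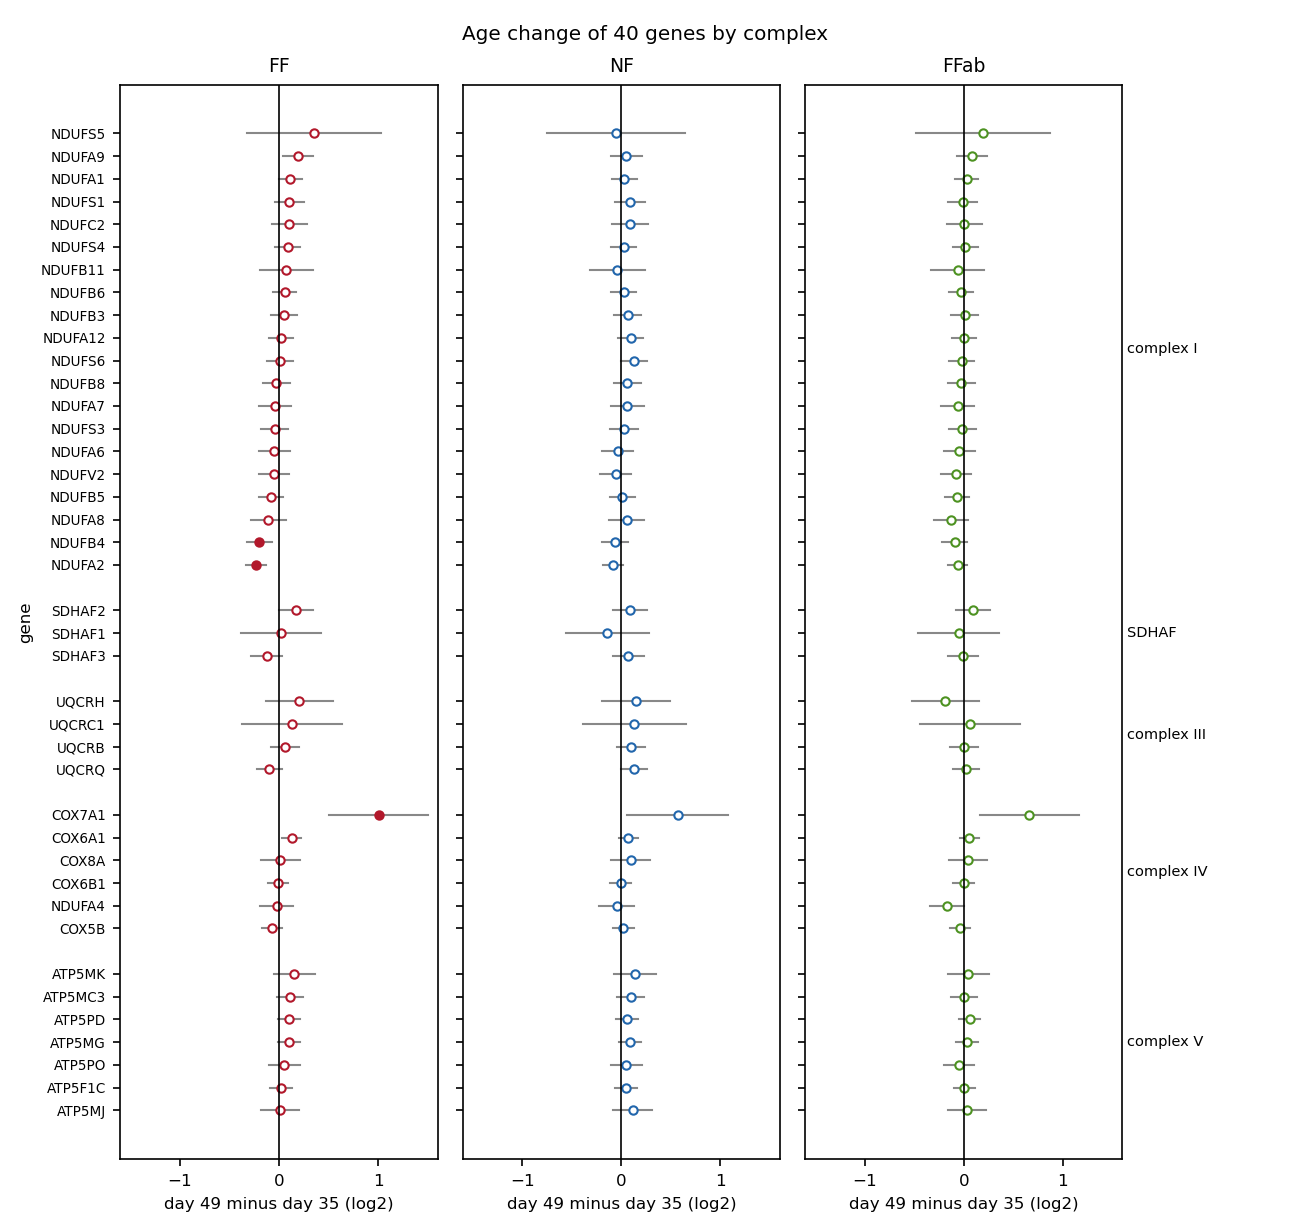
Age change (day 49 minus day 35, log2) of 40 of the 41 genes in FF, NF and FFab, grouped by complex (SDHAF marks the complex II assembly factors); points are limma estimates, lines their 95% intervals, and filled points have an adjusted p under 0.05. COX7A1 lies at 1.01 in FF, 0.57 in NF and 0.66 in FFab, while NDUFA2 (-0.23) and NDUFB4 (-0.20) are the other filled points, both in FF.

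Within complex IV, the terminal oxidase, the muscle and heart form COX7A1 had the largest age change of all members in each treatment. In FF its log2 level ran from 10.26 over a median of 10.65 to 11.47 at day 35, and from 11.02 over 11.90 to 12.05 at day 49. In NF it ran from 9.85 over 10.95 to 12.09 and then from 10.73 over 11.38 to 12.32. In FFab it ran from 9.76 over 10.89 to 11.92 and then from 10.75 over 11.99 to 12.51. The days overlapped in every treatment, but in FF all 9 arrays of day 49 lay above the median of day 35 and 8 of them above every array of day 35. COX7A1 rose by 1.01 ± 0.25 (SE) in FF, a fold of 2.01 (adjusted p = 0.00724 by limma). In NF the value was 0.57 ± 0.25 and in FFab it was 0.66 ± 0.25, neither of which passed (adjusted p = 0.743 for NF and 0.413 for FFab), and over all treatments COX7A1 rose by 0.75 ± 0.14 (fold 1.68, adjusted p = 0.000264). The age change was not shown to differ between treatments: FF exceeded NF by 0.44 (95% interval -0.28 to 1.15, adjusted p = 0.999) and FFab by 0.35 (-0.36 to 1.05, adjusted p = 0.9997).

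The rise of COX7A1 was present on the same slides as well. In FF the array of day 49 was above that of day 35 on 9 of 9 slides, by 0.35 to 1.79, and day 49 was the higher on 7 of 8 slides in NF and on 8 of 9 in FFab. With slide in the fit the change in FF was 0.96 ± 0.22 (adjusted p = 0.00322). The pooled SD of COX7A1 was 0.55, beside 0.75 for NDUFS5 and 0.56 for UQCRC1, the members with a larger spread.

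Because the tissue was whole ileum, more cells that make COX7A1 and more COX7A1 RNA per cell cannot be told apart. All 6 measured markers of absorptive epithelium, which the small intestine shares along its length, were above background on every array; they show that this epithelium was sampled and do not set ileum apart from other segments. Markers of muscle and fat cells were read beside COX7A1. Which cells of the ileum make COX7A1 was not measured. Of 8 measured genes of striated muscle, 7 had a value above 0 in FF (median 0.30), 3 in NF (median -0.16) and 7 in FFab (median 0.46), and in FF 2 rose and none fell (2.81% of all genes rose under the first rule): TNNC1, the troponin C of slow and cardiac muscle (1.84 ± 0.28), and ACTN2, an actinin of the sarcomere (2.08 ± 0.41). TNNC1 also rose in NF (1.55 ± 0.29; 0.0251% of all genes rose under the first rule) and in FFab (1.602 ± 0.28; 0.0753% rose). Its probe was well above background on 4 of 10, 5 of 9 and 2 of 10 arrays of day 35 in FF, NF and FFab, and on 9 of 9, 9 of 9 and 8 of 9 of day 49, so the sizes of its changes rest in part on arrays without a clear signal. The TNNC1 probe thus passed the filter on dim probes through groups of day 49 alone, and that filter favoured a rise. The summed log2 level of the striated list ran from 14.92 to 16.17 in FF at day 35 and from 15.07 to 16.80 at day 49, from 15.14 to 16.97 and from 14.91 to 16.43 in NF, and from 14.82 to 17.34 and from 15.19 to 16.80 in FFab. Its median went from 15.57 to 15.90 in FF, from 16.04 to 15.83 in NF and from 15.83 to 15.98 in FFab. Of 7 smooth muscle genes none passed in any treatment, with a median of 0.34 in FF, -0.16 in NF and -0.04 in FFab, and their summed level ran from 15.97 to 17.59 and from 16.83 to 18.34 in FF, from 16.67 to 18.33 and from 16.66 to 17.91 in NF, and from 15.78 to 18.66 and from 16.46 to 18.38 in FFab.

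Of 4 fat cell genes, all had values above 0 in each treatment (median 1.07 in FF, 1.11 in NF and 0.73 in FFab), and 2 rose in FF (2.81% of all genes rose under the first rule): LPL, the lipase that frees fatty acids from lipoproteins (1.68 ± 0.28), and FABP4, a fatty acid carrier of adipocytes (1.71 ± 0.47). LPL gave 1.26 ± 0.28 in NF and 1.15 ± 0.28 in FFab, and FABP4 gave 2.12 ± 0.48 and 1.34 ± 0.47, none of which passed. Over all treatments LPL rose by 1.36 ± 0.16 and FABP4 by 1.72 ± 0.27 (3.44% of all genes passed the first rule). UCP1, the uncoupling protein of brown fat, was well above background on 28 of 56 arrays and had a value of 0.29 ± 0.28 in FF. It passed the filter on dim probes only through FFab at day 49 (7 of 9 arrays), so the filter favoured its value above 0 in FFab. The summed level of the fat list ran from 10.696 to 13.56 at day 35 and from 12.96 to 14.31 at day 49 in FF, from 10.04 to 12.29 and from 11.88 to 13.67 in NF, and from 11.50 to 12.76 and from 12.04 to 14.68 in FFab. Across the 56 arrays, with group means removed, COX7A1 followed the fat list with r = 0.33 (permutation p = 0.0129, rho = 0.24 with p = 0.0781), the striated list with r = 0.32 (permutation p = 0.0182, rho = 0.26 with p = 0.0541) and the smooth muscle list with r = 0.31 (permutation p = 0.0181, rho = 0.22 with p = 0.108). Over the 8 marker lists compared, the adjusted p was 0.0486 for each of these 3 values of r, and 0.215 for each rho. The permutations exchanged arrays freely, across slides and nests, so these p-values do not account for either. The values of r are therefore given as a description. Without the 2 arrays farthest from the median of the list, r was 0.34 for fat, 0.19 for striated and 0.18 for smooth muscle. With slide removed as well, r was 0.34, 0.45 and 0.43 over all arrays, and 0.31, 0.37 and 0.33 without the 2 farthest. Of the remaining marker lists, 2 of 4 genes of red blood cells fell in FF (1.49% of all genes fell under the first rule), 1 of 3 of B and plasma cells and 1 of 6 of absorptive epithelium rose, and none of 4 of T cells or 7 of cycling crypt cells passed. The part of other cells in the rise of COX7A1 was not tested.

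The other complex IV genes had values close to 0. COX6A1, the form of subunit 6A of most tissues, ran in FF from 16.96 over 17.07 to 17.15 at day 35 and from 17.10 over 17.21 to 17.36 at day 49, so 5 of 9 arrays of day 49 lay above every array of day 35 and 4 lay within their range. It ran from 16.99 over 17.12 to 17.28 and from 17.10 over 17.20 to 17.36 in NF, and from 17.07 over 17.14 to 17.31 and from 17.01 over 17.20 to 17.37 in FFab. COX6A1 rose by 0.08 ± 0.03 over all treatments (fold 1.06, adjusted p = 0.0284), and its value in FF was 0.13 ± 0.05 (adjusted p = 0.0836). That call was lost under 4 of 10 other ways of processing, among them 75th percentile scaling, where the value was 0.02 ± 0.05. COX5B, which binds zinc in the oxidase, gave -0.07 ± 0.05 in FF, COX6B1 gave -0.01 ± 0.05 and COX8A gave 0.01 ± 0.10. NDUFA4, first described in complex I and now counted with complex IV, gave -0.02 ± 0.08 in FF and -0.17 ± 0.08 in FFab (adjusted p = 0.595).

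**Figure D2:**
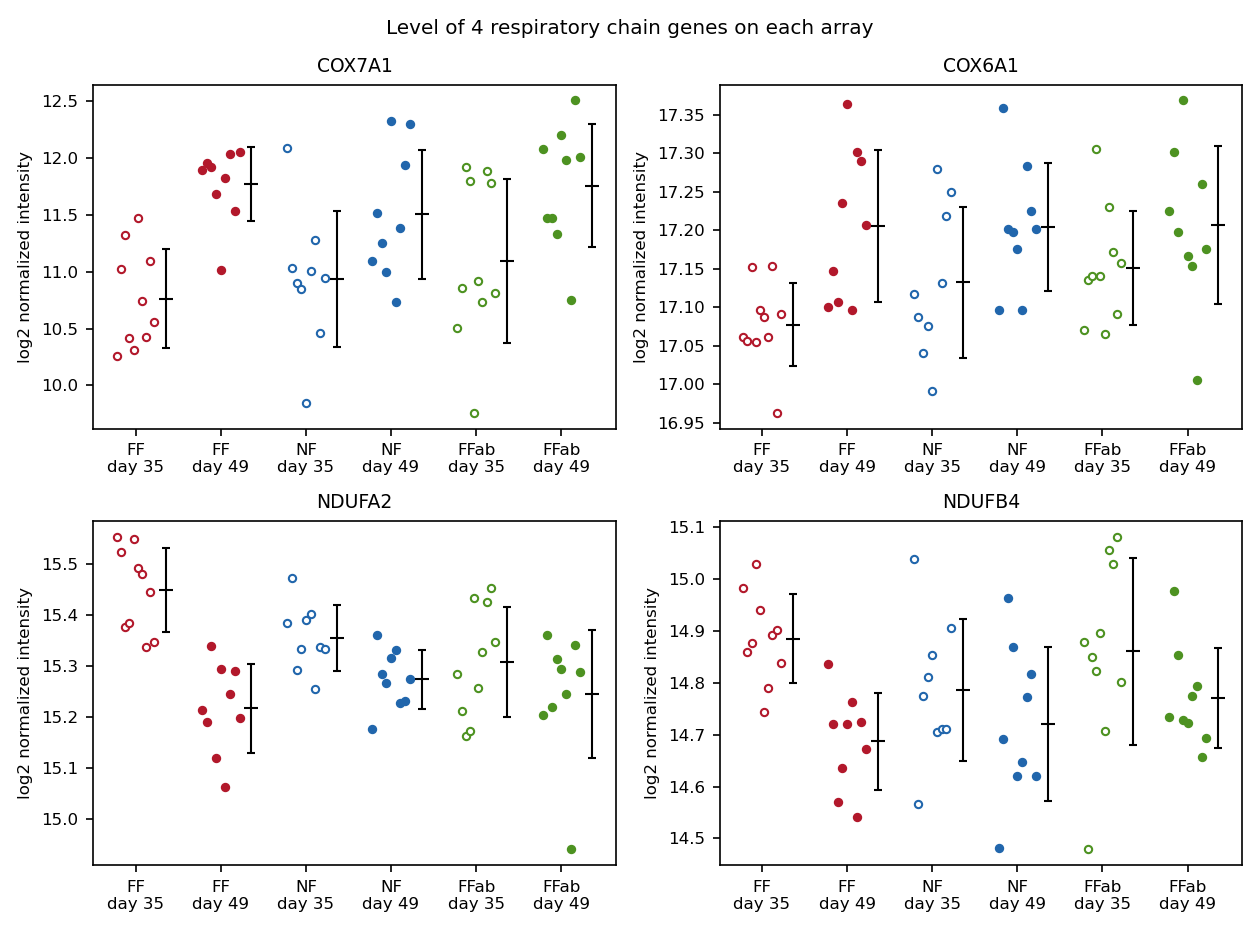
Log2 normalized intensity of COX7A1, COX6A1, NDUFA2 and NDUFB4 on each of the 56 arrays (open circles day 35, filled circles day 49) with the mean and SD of each group beside them; each panel has its own scale. In FF the COX7A1 arrays move from 10.26 to 11.47 at day 35 to 11.02 to 12.05 at day 49, and the NDUFA2 arrays from 15.34 to 15.55 down to 15.06 to 15.34.

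Complex I, the NADH dehydrogenase, held 21 of the members. In FF 2 of them fell, under the second rule only (3.98% of all genes fell under it). NDUFA2, an accessory subunit with a thioredoxin-like fold, ran in FF from 15.34 over 15.46 to 15.55 at day 35 and from 15.06 over 15.21 to 15.34 at day 49. It ran from 15.26 over 15.34 to 15.47 and from 15.18 over 15.27 to 15.36 in NF, and from 15.16 over 15.31 to 15.45 and from 14.94 over 15.29 to 15.36 in FFab. In FF 8 of 9 arrays of day 49 lay below every array of day 35, while the days overlapped widely in FFab. NDUFA2 fell in FF by 0.23 ± 0.05, to 0.852 of its level (adjusted p = 0.00173), and was lower on 9 of 9 slides; it was lower on 8 of 8 slides in NF too, and higher on 5 of 9 in FFab. In NF the value was -0.08 ± 0.05 and in FFab -0.06 ± 0.05 (adjusted p = 0.963 for NF and 0.821 for FFab), and over all treatments NDUFA2 fell by 0.13 ± 0.03 (adjusted p = 0.00162). The fall in FF was beyond that in NF by -0.15 (95% interval -0.29 to -0.01) and beyond that in FFab by -0.17 (-0.31 to -0.03), but neither difference passed adjustment (adjusted p = 0.999 against NF and 0.9997 against FFab). All 5 probes of the mRNA strand fell in FF when tested as single probes (6.86% of all single probes passed), by 0.18 to 0.23. Under 75th percentile scaling the value in FF was -0.20 ± 0.07 and lost its call (adjusted p = 0.0737).

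NDUFB4, an accessory subunit of the membrane arm, ran in FF from 14.74 over 14.88 to 15.03 at day 35 and from 14.54 over 14.72 to 14.84 at day 49. It ran from 14.57 over 14.77 to 15.04 and from 14.48 over 14.69 to 14.96 in NF, and from 14.48 over 14.86 to 15.08 and from 14.66 over 14.73 to 14.98 in FFab. In FF 7 of 9 arrays of day 49 lay below every array of day 35, and the days overlapped in NF and FFab over most of their range. NDUFB4 fell in FF by 0.20 ± 0.06 (adjusted p = 0.0412), with -0.07 ± 0.07 in NF and -0.09 ± 0.06 in FFab. All 10 of its probes gave a value below 0 in FF, from -0.22 to -0.16, and 2 of them passed when single probes were tested (6.86% of all single probes passed). These overlapping probes are not independent. The call in FF was lost under 5 of 11 other ways of processing (adjusted p up to 0.246), while the direction was kept in all of them.

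Core subunits of complex I had small values. NDUFS1, the iron-sulfur subunit of the NADH-oxidizing arm, gave 0.11 ± 0.07 in FF, 0.08 ± 0.07 in NF and -0.01 ± 0.07 in FFab. NDUFS3, at the junction of the arms, gave -0.04 ± 0.07 in FF, and NDUFV2, which carries an iron-sulfur cluster, gave -0.05 ± 0.08. Among accessory subunits, NDUFA9 had a value of 0.19 ± 0.07 in FF (adjusted p = 0.11), NDUFS6 of 0.12 ± 0.07 in NF (adjusted p = 0.854) and NDUFA8 of -0.13 ± 0.09 in FFab (adjusted p = 0.763). All 6 probes of NDUFA9 were above 0 in FF, from 0.19 to 0.28, and 1 of them passed as a single probe (6.86% of all single probes passed). NDUFS5 had the widest interval of complex I, at 0.35 ± 0.34 in FF, -0.06 ± 0.35 in NF and 0.20 ± 0.34 in FFab. Its tested probe was dim, with log2 levels from 2.74 to 7.81 over all arrays, and 1 of its 5 probes gave as little as 0.01 in FF.

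Complex II was represented by its assembly factors alone, and none of the 3 passed in any treatment. SDHAF2, which helps attach FAD to the catalytic subunit, gave 0.17 ± 0.08 in FF (adjusted p = 0.225), 0.09 ± 0.09 in NF and 0.09 ± 0.08 in FFab. SDHAF3, a factor for the iron-sulfur subunit, gave -0.13 ± 0.08, 0.07 ± 0.08 and -0.01 ± 0.08. SDHAF1, a factor for the same subunit, gave 0.02 ± 0.20, -0.14 ± 0.21 and -0.05 ± 0.20.

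In complex III, the ubiquinol-cytochrome c reductase, none of the 4 genes passed with the probe of median level, but UQCRH depended on the probe. UQCRC1, a core subunit, gave 0.13 ± 0.25 in FF, 0.13 ± 0.26 in NF and 0.06 ± 0.25 in FFab. UQCRB, which lies near the quinone site, gave 0.06 ± 0.07, 0.10 ± 0.07 and 0.00 ± 0.07. UQCRQ, a small membrane subunit, gave -0.10 ± 0.06 in FF and 0.12 ± 0.07 in NF, with medians of 15.49 and 15.38 in FF and 15.39 and 15.53 in NF. The age change of UQCRQ in FF was below that in NF by -0.22 (95% interval -0.40 to -0.04), which had the smallest unadjusted p of the members for that difference (p = 0.0203 by limma) and did not pass adjustment (adjusted p = 0.999).

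UQCRH, the hinge protein that helps dock cytochrome c, had 2 probes, which are shown because they read opposite strands. The probe with a RefSeq accession spans chr13:120230482-120234379 on the minus strand, and the other spans chr13:120230471-120234368 on the plus strand. Both spans are far longer than a probe, so each probe matches the genome in separate pieces. The capitals mark the 49 bases in which each probe is the reverse complement of the other:
UQCRH, minus strand: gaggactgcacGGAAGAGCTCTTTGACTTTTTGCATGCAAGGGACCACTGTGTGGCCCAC
UQCRH, plus strand: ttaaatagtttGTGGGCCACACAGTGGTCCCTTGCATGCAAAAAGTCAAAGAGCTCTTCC
The tested probe, by the rule of median level, was that of the plus strand, with levels from 4.75 to 6.60. It gave 0.20 ± 0.17 in FF, 0.15 ± 0.17 in NF and -0.18 ± 0.17 in FFab. The probe of the minus strand ran from 15.35 over 15.77 to 16.12 at day 35 and from 15.38 over 15.60 to 15.73 at day 49 in FF, from 15.47 over 15.71 to 16.09 and from 15.35 over 15.57 to 15.99 in NF, and from 15.59 over 15.75 to 16.05 and from 15.46 over 15.63 to 15.72 in FFab. Its groups overlapped, with the lower median at day 49 in each treatment. Read by it, UQCRH fell by 0.17 ± 0.05 over all treatments (adjusted p = 0.0154), with -0.23 ± 0.08 in FF (adjusted p = 0.0866), -0.12 ± 0.09 in NF and -0.15 ± 0.08 in FFab.

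**Figure D3:**
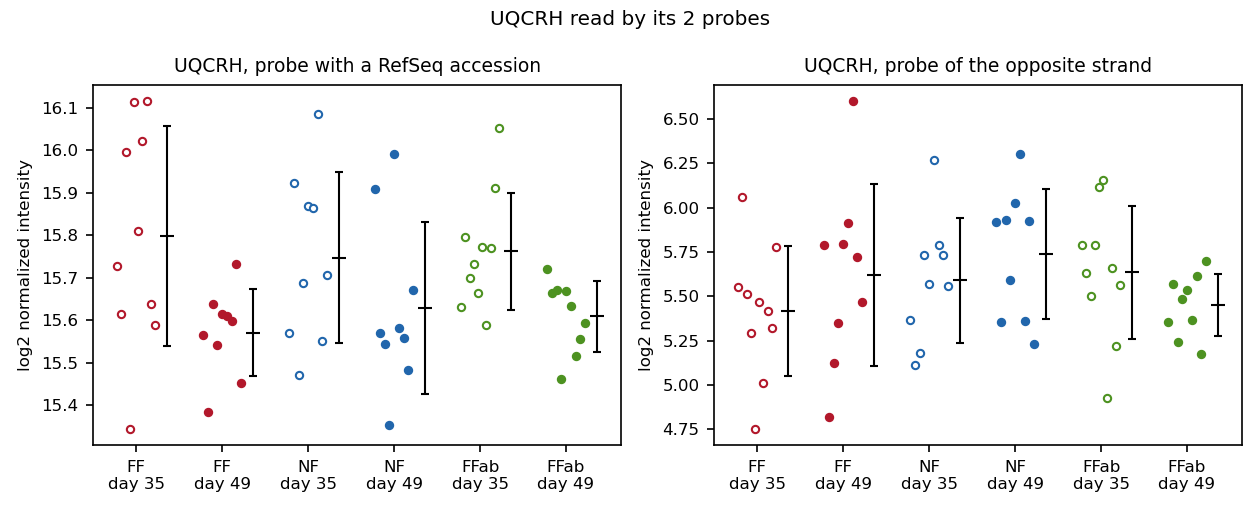
Log2 normalized intensity of UQCRH on each of the 56 arrays, by the probe with a RefSeq accession (left) and by the probe of the opposite strand (right), with open circles for day 35, filled circles for day 49, and the mean and SD of each group; the panels have separate scales. The left probe has its day 49 median below its day 35 median in each treatment, and the right probe does so only in FFab.

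Opposite-strand probes were found for 7 of the 41 genes: NDUFA1, NDUFA2, NDUFB3, NDUFB5, NDUFB6, NDUFB11 and UQCRH, with 10 probes in all. Each was named through a gene identifier, carried no accession of its own, and had a mean log2 level between 5.57 and 8.78. For NDUFB11 the tested probe was also of that kind, and it gave 0.07 ± 0.13 in FF, where the accession-bearing probe gave -0.001 ± 0.06. Leaving these probes out of all genes gave 6 members called over all treatments in place of 5, the added one being UQCRH, and left every other count of members called as it was. For ATP5PD, ATP5PO, COX8A and NDUFS5, 12 probes without an accession had no probe to compare their strand with.

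The 7 genes of complex V, the ATP synthase, all had age changes above 0 in FF and in NF, and 6 of the 7 did in FFab, but none passed a test. Their median was 0.10 in FF, 0.09 in NF and 0.03 in FFab. In FFab the sign depended on the probe for ATP5MC3 (3 of 9 probes above 0) and ATP5MG (2 of 4). It did so in NF for ATP5PO (4 of 6). For ATP5PD and ATP5F1C all probes were above 0 in each treatment. ATP5MK, a small subunit that links dimers of the enzyme, had the largest value in FF at 0.15 ± 0.10 and in NF at 0.13 ± 0.11. ATP5MC3, a gene for the proton-carrying c ring, gave 0.11 ± 0.07, 0.09 ± 0.07 and 0.00 ± 0.07. ATP5MG, a subunit of the membrane part, gave 0.10 ± 0.06, 0.09 ± 0.06 and 0.03 ± 0.06. ATP5F1C, the central shaft, gave 0.02 ± 0.05, 0.05 ± 0.06 and 0.01 ± 0.05, and ATP5PO, in the peripheral stalk, gave -0.05 ± 0.08 in FFab. ATP5PD, also of the peripheral stalk, gave 0.10 ± 0.05 in FF (adjusted p = 0.282), 0.06 ± 0.05 in NF and 0.06 ± 0.05 in FFab. All 8 probes of ATP5PD were above 0 over all treatments, from 0.05 to 0.13, and 4 of them passed when single probes were tested (12.4% of all single probes passed). These probes read the same gene on the same arrays, so they are not independent. By its tested probe ATP5PD did not pass over all treatments.

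Between treatments no member passed either rule, at day 35, at day 49 or in the difference of the age changes. At day 35 the percentages of all genes that passed the second rule were 0.0376% for FF against NF, 0.0251% for FF against FFab (0.0125% under the first rule) and 0% for NF against FFab, and at day 49 and for the 3 differences they were 0%. NDUFA9, an accessory subunit of complex I, had the smallest unadjusted p for FF against NF at day 35, with FF lower by -0.20 ± 0.07 (p = 0.00838, adjusted p = 0.403 by limma). NDUFA2 had the smallest for FF against FFab at day 35, with FF higher by 0.14 ± 0.05 (p = 0.00443, adjusted p = 0.426 by limma). For NF against FFab at day 35 it was NDUFA8, at -0.13 ± 0.09 (p = 0.128, adjusted p = 0.9998 by limma). At day 49 the smallest unadjusted p values were 0.0755 for UQCRQ in FF against NF, 0.184 for UQCRQ in FF against FFab and 0.102 for UQCRH in NF against FFab, all by limma and all with an adjusted p of 0.9998 or more. That value of UQCRH came from its dim probe of the opposite strand. The accession-bearing probe gave 0.02 ± 0.09 for the same comparison (p = 0.82 by limma). At day 35, 1 member had an unadjusted p under 0.05 when FF was set against NF, as did 1 when it was set against FFab (7.7% and 6.09% of all genes had one), and 0 had one for NF against FFab (2.05%) or in any comparison of day 49 (1.17%, 2.35% and 1.82%). For the differences of the age changes, the members with an unadjusted p under 0.05 were 2 for the difference of FF and NF, 1 for that of FF and FFab and 0 for that of NF and FFab, where 4.49%, 2.85% and 0.916% of all genes had one.

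Within groups the members varied together only loosely. Over the 56 arrays, with group means removed, the median r of the 820 pairs of members was 0.14, with a range from -0.62 to 0.81, beside a median of 0.01 over all pairs of genes. All points of such an r share their array and slide, so these values are given as a description. Pairs within a complex had a median r of 0.17 and pairs of different complexes of 0.13. By complex the median was 0.48 for the 3 pairs of SDHAF genes, 0.33 in complex V, 0.18 in complex I, 0.12 in complex IV and -0.06 in complex III. The highest value was between complexes: ATP5MK and NDUFB6 had r = 0.81.

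A pair of groupings stood out when the values were viewed, and was chosen after seeing them. With NDUFS3, 14 of the other 40 members had r above 0.4, among them NDUFA7 (0.79), NDUFS1 (0.78) and NDUFS6 (0.77). With NDUFB6, 13 had r above 0.4, among them ATP5MK (0.81), NDUFC2 (0.79), NDUFA9 (0.68) and UQCRB (0.67). No member was above 0.4 with both, and NDUFS3 and NDUFB6 had r = 0.01 with each other. The tested probes with r above 0.4 to NDUFB6 had 35% to 45% G and C bases, and those to NDUFS3 had 35% to 60%. When slide was removed along with the group means, the separation of the groupings was lost: 19 members were above 0.4 with NDUFS3, 23 with NDUFB6 and 14 with both, and the median r of all member pairs was 0.22.

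**Figure D4:**
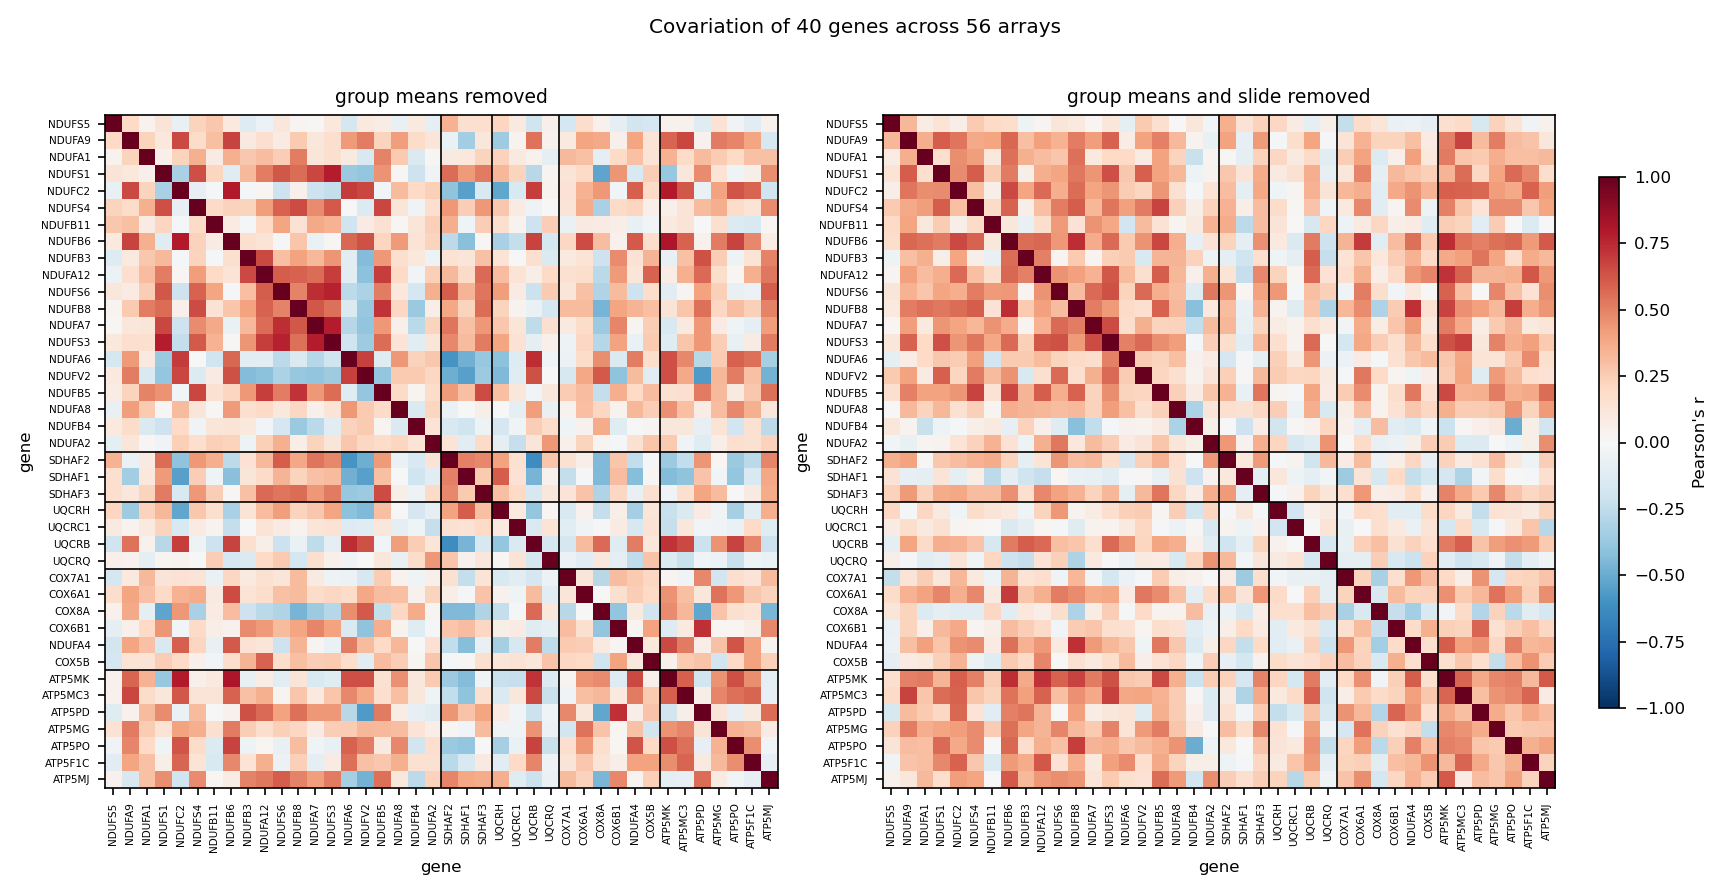
Pearson's r between 40 of the 41 genes across 56 arrays, with the group means removed (left) and with group means and slide removed (right); genes are ordered by complex and by age change in FF, and lines part the complexes. Over all 41 genes the median r is 0.14 with the group means removed and 0.22 with slide removed as well.

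Other genes of mitochondrial energy metabolism were read from lists made for this purpose. Of 31 measured assembly factors of the respiratory complexes, 3 rose and 2 fell in FF under the second rule (3.9% of all genes rose and 3.98% fell): SCO1, a copper chaperone for complex IV (0.40 ± 0.10), CMC1, another factor of complex IV (0.33 ± 0.09), and NUBPL, an iron-sulfur factor of complex I (0.49 ± 0.16), rose, while UQCC3, a factor of complex III (-0.32 ± 0.07), and NDUFAF3, of complex I (-0.29 ± 0.07), fell. Over all treatments 4 rose and 2 fell under that rule (6.5% of all genes rose and 6.95% fell), where COX15, needed for the heme of complex IV (0.20 ± 0.06), and ATPAF1, a factor of complex V (0.15 ± 0.05), joined SCO1 and CMC1. Their median was -0.001 in FF. Of 35 measured proteins of the mitochondrial ribosome, which translates the subunits encoded in mitochondrial DNA, 1 rose and 5 fell in FF, with a median of -0.09 and 6 values above 0. MRPL37 (-0.45 ± 0.07), MRPL40 (-0.18 ± 0.04), MRPL9 (-0.28 ± 0.07), MRPL17 (-0.33 ± 0.11) and MRPS26 (-0.18 ± 0.06) fell and MRPS5 (0.50 ± 0.15) rose. MRPL37, with the largest of these falls, went to 0.733 of its level (adjusted p = 7.78e-05 by limma).

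Of 11 measured genes of mitochondrial biogenesis and mitochondrial DNA, 2 fell in FF under the second rule (3.98% of all genes fell and 3.9% rose): PPRC1, a coactivator of mitochondrial gene expression (-0.53 ± 0.16), and SSBP1, the single-strand binding protein of mitochondrial DNA (-0.18 ± 0.05). Of 15 measured genes of fatty acid oxidation and ketone body formation, 1 rose and 2 fell in FF under the same rule: ACAT1, which handles acetoacetyl-CoA, rose (0.32 ± 0.09), and ACADVL, an acyl-CoA dehydrogenase of long chains (-0.37 ± 0.09), was among those that fell. None of 13 genes of the TCA cycle, of 16 electron carriers and entry points or of 6 carriers and porins passed in FF, and their medians were -0.03, -0.06 and -0.06. In NF and in FFab no gene of any of these lists passed, where 0.0627% and 0.1% of all genes passed the second rule. Between treatments none passed either, where at most 0.0376% of all genes did.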

How the data were processed

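The authors deposited 1 scanner file per array, made with Agilent Feature Extraction (the record names version 10.7.3.1 and the file headers 10.10.1.1), with intensity per spot on a linear scale, background-subtracted by that software as processed signal, and a table of log2 values of 33284 probes that the authors had quantile normalized. No counts lie behind these values, so the number of arrays limits precision. Here, spots marked as outliers were left out (281 to 462 per array of 62976 spots), processed signal was averaged per probe over 42089 probes, taken to log2 and quantile normalized (R 4.3.3, limma 3.58.1). Between 66.0% and 83.7% of spots were well above background. Probes were named through RefSeq accession, gene identifier or gene name (assembly mOryCun1.1 for names only); 14 member probes of 6 genes (NDUFA1, NDUFA6, NDUFA8, NDUFS4, COX7A1 and SDHAF1) were named through an identifier in the description column. A gene was read by its probe of median level, the lower one for an even number. Strand was compared by shared runs of 20 bases or by position. The limma fit (lmFit and eBayes) held the 6 groups and 56 arrays, all tests were two-sided, and p-values were adjusted over 7969 genes. Deviations of COX7A1 and of summed marker levels were correlated with 100000 permutations, with missing marker values set to the probe's mean. The fit was tested on simulated data. No sample columns of other series were present.

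Members, gene lists and comparisons were chosen with earlier results of these data known, and the lists of other mitochondrial genes and of markers are therefore no independent evidence. Named members were those that passed a rule, the extremes of each complex in each treatment, the measured core subunits and isoforms, those whose probes disagreed, and, between treatments, those of smallest p; other gene lists were named by the genes that passed. Alternatives were 75th percentile scaling, normexp background correction with an offset of 50, the deposited table, other filters, all 57 arrays, slide as a block, other ways to combine probes, and fits of 1 treatment alone; leaving out probes of the opposite strand was chosen after seeing the data. The authors' supplementary fold changes were not used. Results of some genes are not reported here, though they stay in the counts.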

Additional observations from a re-analysis of the deposited data

Results flagged for a closer look

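In 246 groups of arrays tested (41 genes in 6 groups), 19 had an array far from the others by Dixon's ratio, in 14 genes; chance alone flags about 1 in 20 groups. In complex IV, 1 FF rabbit of day 49 had the lowest COX7A1 level, 11.02, against 11.54 for the nearest array. The lowest level of a group stood apart for COX6A1 (16.96) and COX5B (16.25) in FF at day 35 and for COX8A in NF at day 35 (8.16), and the highest for NDUFA4 in NF at day 35 (15.07). In complex I, the lowest NDUFA2 level stood apart in FFab at day 49 (14.94), the highest NDUFA8 level in NF at day 35 (12.78) and the highest NDUFB6 level in FFab at day 35 (14.73). The same rabbit had the NDUFA4 and the NDUFA8 value. The dim probe of NDUFS5 had 4 such arrays, with the highest level in FF at day 49 (6.83), in NF at day 35 (7.81) and in FFab at day 49 (7.17) and the lowest in FFab at day 35 (2.74). In complex V, the lowest ATP5F1C level stood apart in NF at day 49 (15.82), the highest ATP5MJ level in FF at day 49 (14.66), and the highest ATP5MK levels in FF and in FFab at day 35 (12.81 and 12.89); the rabbit of the latter also had the NDUFB6 value. For UQCRQ the highest level stood apart in NF at day 35 (15.82) and the lowest in FFab at day 35 (15.15), and for SDHAF1 the lowest in NF at day 49 (5.07).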

How the results depend on the processing

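The count of members that passed the first rule (adjusted p and a log2 change beyond 0.5) was the same in every comparison under all alternatives run. Under the second rule (adjusted p alone) the count in FF, 3 in the report, was 1 with 75th percentile scaling and 5 when every probe was tested, and the count over all treatments, 5 in the report, was 1 with 75th percentile scaling, 3 with normexp background correction and 8 with slide as a fixed block (the cause was not tested). The balance of directions moved as well: in FF, 1 rise and 2 falls became 3 and 1 with the deposited table, 3 and 2 with every probe tested, 1 and 0 with 75th percentile scaling, and 1 and 1 with normexp, without the filter on dim probes or with the mean of probes, and over all treatments 2 rises and 3 falls became 3 and 2 with the deposited table, 1 and 0 with 75th percentile scaling, 1 and 2 with normexp, 1 and 3 with all 57 arrays, 3 and 3 with the mean of probes, 3 and 4 with every probe tested, 4 and 4 with slide as a fixed block, 4 and 3 as a random block and 2 and 4 without opposite-strand probes. The 8 gene-level age changes that passed kept their direction under every alternative, and 15 of 83 lost their call, none of them for COX7A1 (0.96 to 1.01 in FF). The median change of the members stayed within 0.02 and 0.05 in FF, 0.03 and 0.08 in NF and -0.02 and 0.01 in FFab, moving by less than the spread between arrays (SD 0.07). No analysis paired by rabbit was possible because the rabbits of different groups carry different numbers; slide, which all groups share, was used as a block instead. In FF the 95% intervals of NDUFS5, UQCRC1 and the tested probe of UQCRH reached beyond 0.5 on the log2 scale and so include a change of that size; that of the accession-bearing probe of UQCRH did not (-0.39 to -0.06).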
